A study of Rattus norvegicus with 8 samples.

Results

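Genes commonly used as markers of the striatum and the thalamus, brain regions near the tissues sampled, were followed library by library. They were Ppp1r1b, Adora2a and Pde10a for the striatum and Tcf7l2 and Prkcd for the thalamus, picked by symbol. All 5 of these genes were found among the 15892 symbols that were listed for both tissues, and all 5 passed the filter of a mean of at least 1 FPKM, which left 10557 genes. FPKM are fragments counted per length of transcript and scaled to the size of the library, so that levels of different genes can be set beside each other. The tissues came from male rats of the outbred Sprague Dawley stock, which were 2 months old when feeding began. Every animal received an omega-3 (n-3) diet, labelled DHA for docosahexaenoic acid, with 15% fructose in its drinking water over 6 weeks. Each tissue gave 4 libraries, 8 in all, and no other diet arm was analysed here, so no effect of the diet can be read. No library of striatum or thalamus was analysed here, so the level that either region alone would give is not known.

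Striatal projection neurons receive dopamine and adenosine signals that act through cyclic AMP. The A2a adenosine receptor (Adora2a) raises cyclic AMP in the neurons of the indirect pathway, and phosphodiesterase 10A (Pde10a) breaks cyclic AMP and cyclic GMP down. DARPP-32 (Ppp1r1b) is phosphorylated by the cyclic AMP-dependent kinase and then inhibits protein phosphatase 1. In the thalamus, Tcf7l2, a transcription factor that binds DNA with beta-catenin, is made by excitatory neurons, and the protein kinase C isoform delta (Prkcd) marks many thalamic relay neurons. None of the genes is limited to these regions. Tcf7l2 is also made by maturing oligodendrocytes, Prkcd by neurons of the central amygdala and Ppp1r1b by neurons of several forebrain regions.

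The upstream sequences of Pde10a and Tcf7l2 are shown because Pde10a had its higher mean level in hippocampus and Tcf7l2 in hypothalamus. They are the 250 bases before an annotated start, from RefSeq on build GRCr8, written along the gene's strand; the expression tables were made on build rn5. Capitals mark TGACG or its reverse complement CGTCA, the half-site of the cyclic AMP response element. An entry was found for 3 of the 5 genes (Pde10a, Tcf7l2 and Prkcd).
Pde10a, first start (chr1:54765669-54765918, minus strand): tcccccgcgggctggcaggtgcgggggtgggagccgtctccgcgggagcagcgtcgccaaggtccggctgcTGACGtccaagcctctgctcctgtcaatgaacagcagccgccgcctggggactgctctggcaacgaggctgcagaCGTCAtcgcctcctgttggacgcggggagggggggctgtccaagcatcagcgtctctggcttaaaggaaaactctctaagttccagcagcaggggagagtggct
Pde10a, second start (chr1:54501207-54501456, minus strand): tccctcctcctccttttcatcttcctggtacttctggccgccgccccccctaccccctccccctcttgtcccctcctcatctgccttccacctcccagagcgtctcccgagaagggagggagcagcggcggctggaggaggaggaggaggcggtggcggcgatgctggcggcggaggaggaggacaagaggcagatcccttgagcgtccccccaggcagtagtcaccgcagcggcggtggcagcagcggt
Tcf7l2 (chr1:264791085-264791334, plus strand): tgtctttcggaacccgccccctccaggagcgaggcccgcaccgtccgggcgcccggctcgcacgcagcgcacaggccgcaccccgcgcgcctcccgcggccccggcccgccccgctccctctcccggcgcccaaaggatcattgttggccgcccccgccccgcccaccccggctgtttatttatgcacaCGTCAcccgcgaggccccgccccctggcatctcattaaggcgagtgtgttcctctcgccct
The first Pde10a window held 2 half-sites, whose first bases lay 179 and 104 bases before the start, and both were part of TGACGTC or its reverse complement. The Tcf7l2 window held 1 half-site, 61 bases before the start, and the second Pde10a window held none. The window of Prkcd, whose mean was also higher in hippocampus, is not printed and held no half-site. On both strands together, TGACG was in 18.2% and the longer TGACGTC, which includes it, in 2.80% of 33469 RefSeq windows of this length. The full element TGACGTCA was in none of the printed windows and in 1.59% of all. The printed windows held 66, 68.4 and 73.6% G or C in the order shown, against a median of 51.2% over all windows. The shares were not matched for this content. The expression tables do not separate transcripts by start, so the windows were not matched to levels.

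Each tissue was listed in its own table, quantified apart, so that a difference between tissues and a difference between tables cannot be told apart. Levels after a joint scaling of the 8 libraries were therefore set side by side without a test. A gene was called higher or lower in hypothalamus when the mean difference in log2(FPKM + 1) was at least 1 and the 4 libraries of the tissues did not overlap. By this rule 13.3% of the 10557 genes were higher and 13.4% lower, or 26.7% called in either direction, and the libraries separated at any difference for 53.4%. Markers of the tissues themselves fitted the labels: all 7 compared pallial neuron genes were lower and all 8 compared hypothalamic neuron genes higher in hypothalamus. Gapdh, a gene used by every cell, lay far apart between the tables, at 4.12 to 8.17 FPKM in hippocampus and 429 to 718 in hypothalamus. Whether the 4 libraries of a tissue stand for 4 animals is not stated in the labels, and the SDs given are those between libraries.

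Of the 5 genes, 1 was called, where 26.7% of all genes were. Pde10a was lower in hypothalamus, Ppp1r1b separated the tissues just under the limit, and Tcf7l2, Prkcd and Adora2a overlapped. The 3 striatal genes did not go one way: Ppp1r1b lay above its hippocampal level in every hypothalamus library, Pde10a below it, and Adora2a overlapped. In tissue extracts, fewer cells of a type and less RNA per cell cannot be told apart.

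**Figure D1:**
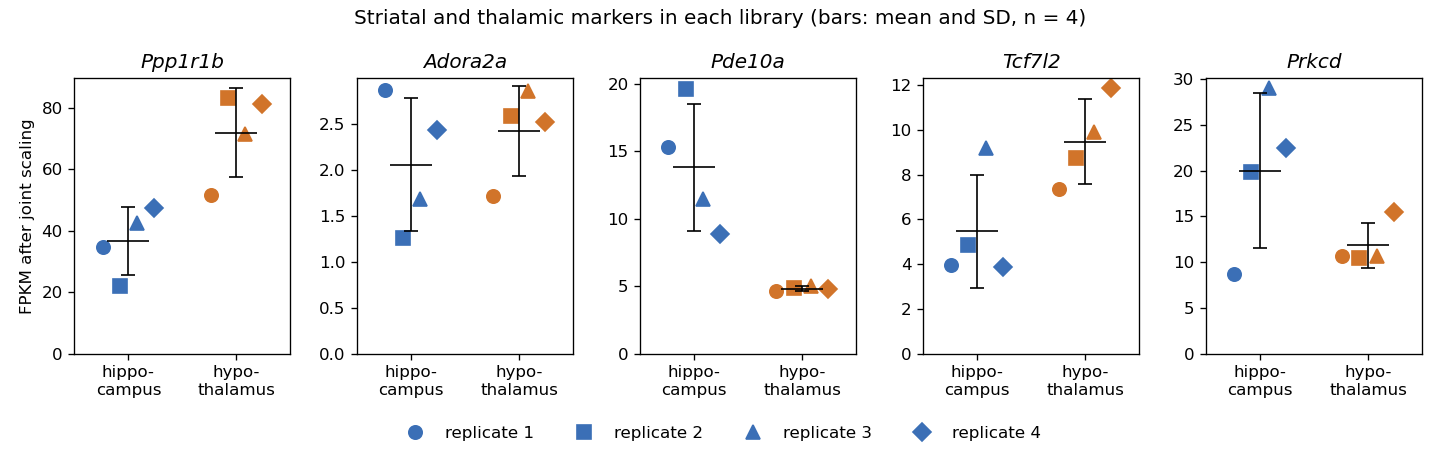
FPKM after joint scaling (vertical axes, from 0) of the 5 genes in the 4 hippocampus (blue) and 4 hypothalamus (orange) libraries, with marker shapes for the replicate number and black bars for mean and SD. Pde10a sits at 8.89 to 19.7 in hippocampus and at 4.61 to 5.01 in hypothalamus, while Tcf7l2 of hippocampus replicate 3 lies among the hypothalamus libraries.

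Adora2a was the lowest of the 5 in both tissues. Its levels in hippocampus were 2.86, 1.25, 1.68 and 2.43 FPKM for replicates 1 to 4, and in hypothalamus 1.72, 2.58, 2.86 and 2.52. The tissues overlapped, with hippocampus replicate 1 as high as any hypothalamus library and hypothalamus replicate 1 among the lower hippocampus libraries. The means were 2.05 ± 0.72 and 2.42 ± 0.49 FPKM (SD, n = 4), a difference of 0.18 ± 0.21 (SE) on the log2(FPKM + 1) scale. Without replicate 1 of both tissues the libraries separated, with a difference of 0.41, still under the limit, and with values as deposited it was 0.34, with overlap. Among genes that reached a mean of 1 FPKM in the tissue, 7.25% in hippocampus and 11.0% in hypothalamus had a lower mean.

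Pde10a was at 15.3, 19.7, 11.4 and 8.89 FPKM in hippocampus and at 4.61, 4.86, 5.01 and 4.79 FPKM in hypothalamus. Every hippocampus library was above every hypothalamus library. The mean was 13.8 ± 4.70 FPKM in hippocampus and 4.82 ± 0.17 in hypothalamus (SD, n = 4), 2.87 times higher in hippocampus, with a log2 difference of -1.29 ± 0.23 (SE). The call was kept under each of the settings tried. The hypothalamus libraries were close together, with the highest 1.07 times the lowest, and only 1.07% of 10828 genes had a smaller SD there. In hippocampus the highest was 2.20 times the lowest, a spread that exceeded that of 84.5% of 10406 genes.

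Ppp1r1b was the most abundant of the 5 in both tissues. It stood at 34.6, 22.0, 42.4 and 47.4 FPKM in hippocampus and at 51.7, 83.3, 71.5 and 81.0 FPKM in hypothalamus. The lowest hypothalamus library, replicate 1, lay just above the highest hippocampus library, replicate 4. The means were 36.6 ± 11.1 and 71.9 ± 14.4 FPKM (SD, n = 4), 1.96 times higher in hypothalamus, and the log2 difference was 0.99 ± 0.28 (SE). This missed the limit of 1, and the gene was called higher without hippocampus replicate 3 (1.07), hippocampus replicate 4 (1.12) or hypothalamus replicate 1 (1.14), and with values as deposited (1.22). Its mean exceeded that of 77.6% of genes in hippocampus and 90.2% in hypothalamus.

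Tcf7l2 was at 3.94, 4.85, 9.21 and 3.87 FPKM in hippocampus and at 7.38, 8.76, 9.91 and 11.9 FPKM in hypothalamus. A single hippocampus library, replicate 3, lay in the range of the hypothalamus libraries, and the other 3 were well below it. The means were 5.47 ± 2.53 and 9.47 ± 1.90 FPKM (SD, n = 4), 1.73 times higher in hypothalamus, with a log2 difference of 0.75 ± 0.28 (SE). Without hippocampus replicate 3 the tissues separated at 0.99, still under the limit.

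Prkcd stood at 8.67, 19.8, 29.1 and 22.5 FPKM in hippocampus and at 10.7, 10.5, 10.7 and 15.4 FPKM in hypothalamus. Hippocampus replicate 1 was below all hypothalamus libraries and the other 3 were above them. The means were 20.0 ± 8.50 and 11.8 ± 2.41 FPKM (SD, n = 4), 1.69 times higher in hippocampus, with a log2 difference of -0.62 ± 0.37 (SE). The difference was -0.96, with the tissues separate, without hippocampus replicate 1, and -0.41, with the tissues overlapping, without hippocampus replicate 3. Each table had 2 loci under this symbol, and the smaller never passed 0.62 FPKM as deposited.

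The order of the 5 levels differed between the tissues. In hippocampus it ran from Ppp1r1b over Prkcd, Pde10a and Tcf7l2 to Adora2a, and libraries of each gene overlapped those of the next except between Tcf7l2 and Adora2a. In hypothalamus Tcf7l2 came before Pde10a, and the only neighbours that overlapped were Prkcd and Tcf7l2.

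All 5 genes varied more between hippocampus libraries than between hypothalamus libraries. In hippocampus the highest library was at least 2 times the lowest for all 5 genes, which held for 24.6% of all 10406 genes. The ratio was 2.17 for Ppp1r1b, 2.28 for Adora2a, 2.40 for Tcf7l2 and 3.41 for Prkcd. The share of genes that reached 2 depended on level. Among hippocampus genes of similar mean level it was 41.7% for Adora2a, 26.0% for Tcf7l2 and 17.0 to 19.2% for the others. In hypothalamus the ratio was under 2 for all 5 and at most 1.64, for Adora2a, and 13.5% of all 10828 genes reached 2. The SD of Prkcd in hippocampus was above that of 96.3% of genes. It rested on replicate 1, without which the ratio was 1.48. The ratio for Tcf7l2 rested on replicate 3, without which it was 1.25, and those for Ppp1r1b (1.40) and Adora2a (1.67) were lower without replicate 2. Leaving out replicate 4 for Ppp1r1b (1.97) or replicate 1 for Adora2a (1.95) also took the ratio under 2. For Pde10a the ratio was 1.69 without replicate 2 and 1.68 without replicate 4.

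**Figure D2:**
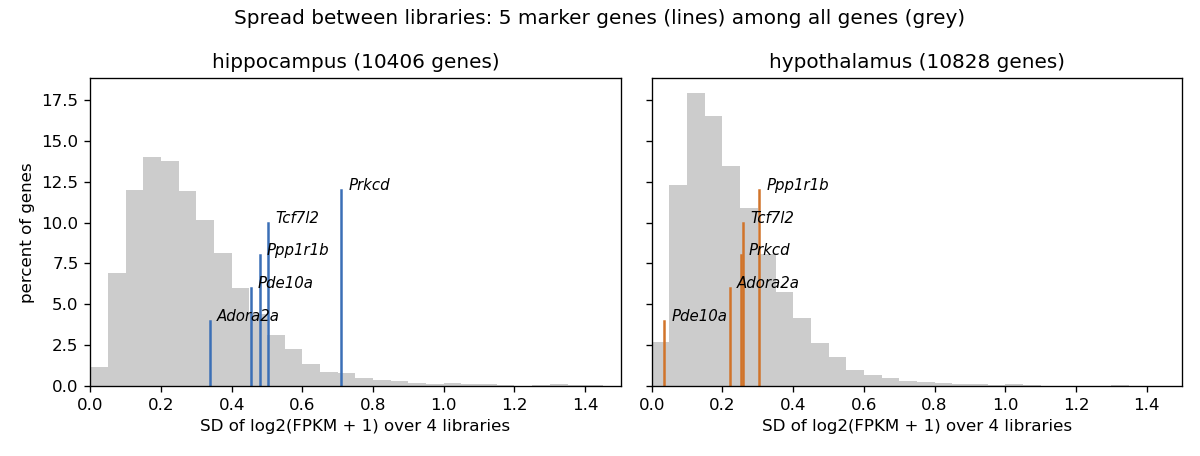
SD of log2(FPKM + 1) over the 4 libraries of hippocampus (left, 10406 genes) and hypothalamus (right, 10828 genes), as percent of genes (grey bars), with coloured lines at the 5 genes, whose heights carry no value. Prkcd lies far right in hippocampus, above 96.3% of genes, and Pde10a far left in hypothalamus, above 1.07%.

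The libraries that were high differed from gene to gene. Hippocampus replicate 3 was highest for both thalamic genes, Tcf7l2 and Prkcd. Of all genes compared, 13.0% had their highest hippocampus value in replicate 3. None of the 3 striatal genes did: replicate 1 was highest for Adora2a (25.2% of all genes), replicate 2 for Pde10a (37.6%) and replicate 4 for Ppp1r1b (24.1%). Replicate 1 was lowest for Prkcd, against 22.5% of all genes. In hypothalamus, replicate 4 was highest for both thalamic genes (20.4% of all genes), replicate 3 for Adora2a and Pde10a (18.8%) and replicate 2 for Ppp1r1b (21.7%). Replicate 1 was lowest there for Ppp1r1b, Adora2a, Pde10a and Tcf7l2, against 41.4% of all genes.

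Other thalamic genes were looked at in the same libraries, from a list of 15 without Tcf7l2 and Prkcd. Of the 13 compared, 6 were highest in hippocampus replicate 3, where 13.0% of all genes were. Calb2, encoding calretinin, was at 6.92, 11.8, 21.5 and 12.2 FPKM in the hippocampus libraries. Rgs16, a regulator of G protein signalling, was at 5.09, 6.82, 12.7 and 8.04. Rgs16, Tnnt1 and Ramp3 are named after their values were seen, Rgs16 because replicate 3 stood out. Gbx2 and Shox2, homeobox genes of developing and mature thalamic neurons, were under the filter and are named after their values were seen. Gbx2 was listed at 0.79 FPKM in replicate 3 and at 0 to 0.04 in the other 3 hippocampus libraries, and Shox2 at 0.50 and at 0 to 0.04. Both were also found in hypothalamus, at 0.86 to 1.95 FPKM for Gbx2 and 0.25 to 1.11 FPKM for Shox2. The list was not high in hippocampus replicate 3 throughout. Tnnt1 was lowest there, at 0.32 FPKM, and Ramp3 was highest in replicate 4, at 11.7 FPKM. The summed level of the 15 genes was 129 FPKM in replicate 3 and 96.5 to 119 FPKM in the other hippocampus libraries.

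**Figure D3:**
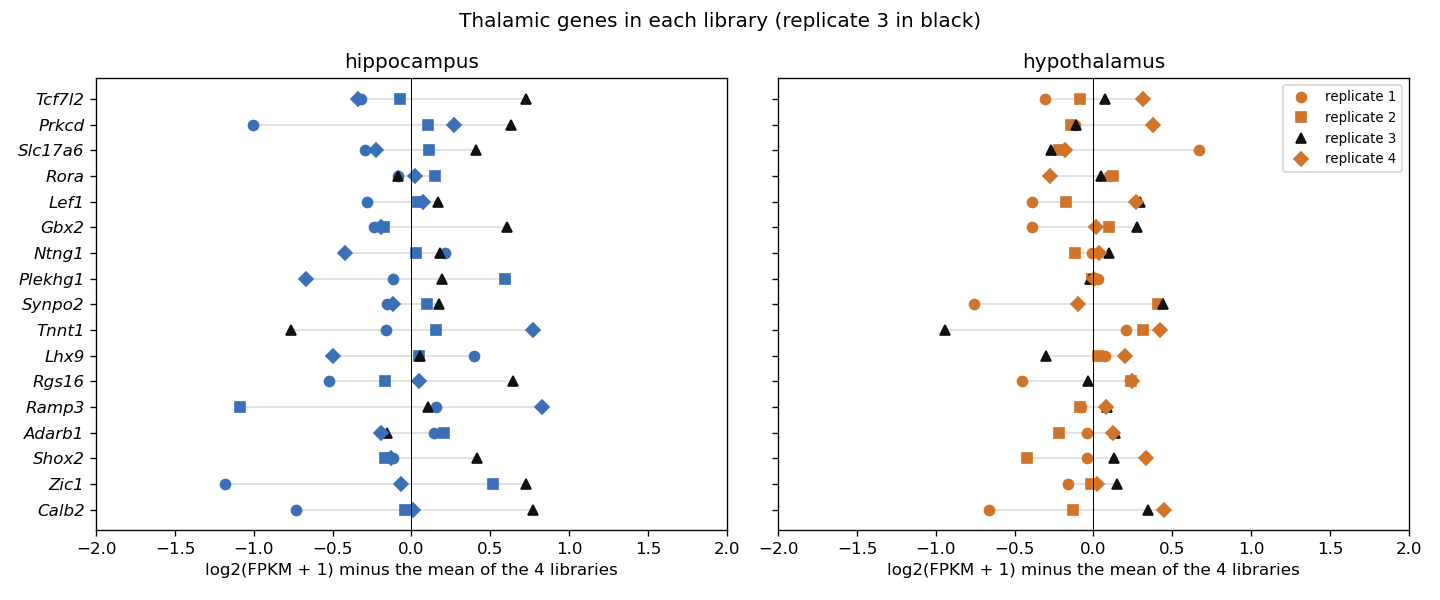
Deviation of log2(FPKM + 1) from the mean of the 4 libraries of a tissue, for Tcf7l2, Prkcd and the 15 thalamic list genes (rows), in hippocampus (left) and hypothalamus (right), with shapes for replicates and replicate 3 in black. In hippocampus the black triangles lie furthest right for Tcf7l2 and Prkcd and for 6 of the 13 list genes compared, and far left for Tnnt1.

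Markers of other tissue also moved between these libraries. Choroid plexus genes summed to 6868 FPKM in hippocampus replicate 3 and 5127 in replicate 4, against 60.0 and 81.3 in replicates 1 and 2, with none of the 4 listed genes at 0. Myelin genes, of which all 9 were compared and none was at 0, summed to 4353, 6300.2, 6146 and 4510 FPKM in hippocampus replicates 1 to 4 and to 5616, 6899, 7321 and 9341 FPKM in hypothalamus. Of these, 6 were highest in hippocampus replicate 3 (13.0% of all genes) and all 9 in hypothalamus replicate 4 (20.4%). Tcf7l2 and Prkcd were highest in the same libraries. Genes of newly formed oligodendrocytes, 5 of 5 compared with none at 0, summed to 153, 138, 153 and 130.0 FPKM in hippocampus replicates 1 to 4 and to 106, 121, 139 and 182 FPKM in hypothalamus. In hypothalamus their order was that of Tcf7l2, as was that of the myelin sum and of the summed thalamic list (245, 253, 308 and 320 FPKM). The order of the thalamic sum rested on Calb2, at 76.9, 112, 156 and 167 FPKM in hypothalamus. Slc17a6 of the same list was highest in replicate 1, at 77.3, 41.3, 39.9 and 42.6 FPKM. In hippocampus none of these sums had the order of Tcf7l2. The newly formed oligodendrocyte genes summed to the same level in replicates 1 and 3, with Tcf7l2 at 3.94 and 9.21 FPKM. Most of that sum was Bcas1, at 127 and 130 FPKM in these replicates. Enpp6 was lower in replicate 1 (1.37 and 3.47 FPKM) and Gpr17 higher (16.6 and 9.24 FPKM). The part of these markers in the levels of Tcf7l2 and Prkcd was not tested. Without hippocampus replicates 3 and 4, the difference was 0.93 for Tcf7l2, with the tissues separate, -0.18 for Prkcd, -1.68 for Pde10a and 1.31 for Ppp1r1b.

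Genes known from striatal projection neurons went both ways between the tissues. Of 19 compared, 4 were higher and 6 lower in hypothalamus, against 13.3% and 13.4% of all genes. Their median difference was -0.71, where that of all genes was -0.04. Many genes of this list are known from hippocampal neurons as well. The dopamine D2 receptor gene Drd2 was at 0.71 to 1.55 FPKM in hippocampus and 3.76 to 8.71 in hypothalamus, a difference of 1.90 ± 0.26 (SE). Drd1, the D1 receptor, was at 4.02 to 6.51 and 1.71 to 2.26 FPKM, a difference of -0.99 ± 0.15, and was not called. Gpr6, an orphan receptor of the indirect pathway, was at 0.32 to 1.54 and 2.81 to 4.65 FPKM and was called higher. Drd1 was called lower without hippocampus replicate 2 (-1.08) or 3 (-1.07) or hypothalamus replicate 1 (-1.03). Gnal, the G protein subunit that couples A2a and D1 receptors to adenylyl cyclase, was at 7.16 ± 1.64 and 54.3 ± 2.51 FPKM in the tissues in this order (SD, n = 4). Drd1, Drd2, Gpr6 and Gnal are named for their roles, after their values were seen. Adcy5, the adenylyl cyclase of the striatum, stood at 48.9 ± 4.57 and 29.5 ± 1.95 FPKM, under the limit at -0.71. Bcl11b, a transcription factor of deep-layer and striatal neurons, was lower in hypothalamus by -3.73, and Arpp21, a cyclic AMP-regulated phosphoprotein, by -2.92.

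Within hippocampus, only part of the striatal genes were highest in the library where Ppp1r1b was. Of the 19, 11 were highest in replicate 1, where 25.2% of all genes were, and 6 in replicate 4, where 24.1% were. Adora2a and Drd2 were highest in replicate 1 and Ppp1r1b in replicate 4. Hippocampal and pallial neuron genes, 7 of 7 compared with none at 0, summed to 1786 FPKM in replicate 1 and 1056 to 1211 FPKM in the other hippocampus libraries, and 4 of the 7 were highest in replicate 1. Their part in the levels of the striatal genes was not tested. The striatal list summed to 459, 372, 355 and 450 FPKM in hippocampus replicates 1 to 4 and to 218 to 266 in hypothalamus, with no gene at 0 in any library.

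Thalamic genes other than Tcf7l2 and Prkcd were higher in hypothalamus for 5 of 13 and lower for 2, against 13.3% and 13.4% of all genes. Their median difference was 0.06. Calb2 was at 13.1 ± 6.09 FPKM (hippocampus) and 128 ± 41.7 in hypothalamus (SD, n = 4), a difference of 3.23 ± 0.40 (SE). Slc17a6, the vesicular glutamate transporter of thalamic and hypothalamic neurons, had means of 5.97 ± 1.62 and 50.3 ± 18.0 FPKM. Adarb1, an RNA-editing enzyme that is high in thalamus, was at 33.3 ± 4.85 and 34.3 ± 3.95 FPKM and overlapped. Of 4 compared genes of the habenula, which adjoins the thalamus, none was called, where 26.7% of all genes were. The 2 with the highest levels were Gng8, a G protein subunit, and Lrrc55, an auxiliary subunit of potassium channels. Gng8 was at 16.5 ± 7.28 and 26.8 ± 4.71 FPKM and Lrrc55 at 4.59 ± 1.53 and 6.67 ± 0.68 FPKM. Gng8 was called higher without hippocampus replicates 3 and 4 (1.28) and with values as deposited (1.0016). The other 2, Chrnb4 and Chrna3, were highest in hippocampus replicate 4 (24.1% of all genes). They are named after their values were seen. The 5 listed habenula genes summed to 42.1 FPKM there, against 14.9 to 28.7 in the other hippocampus libraries.

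**Figure D4:**
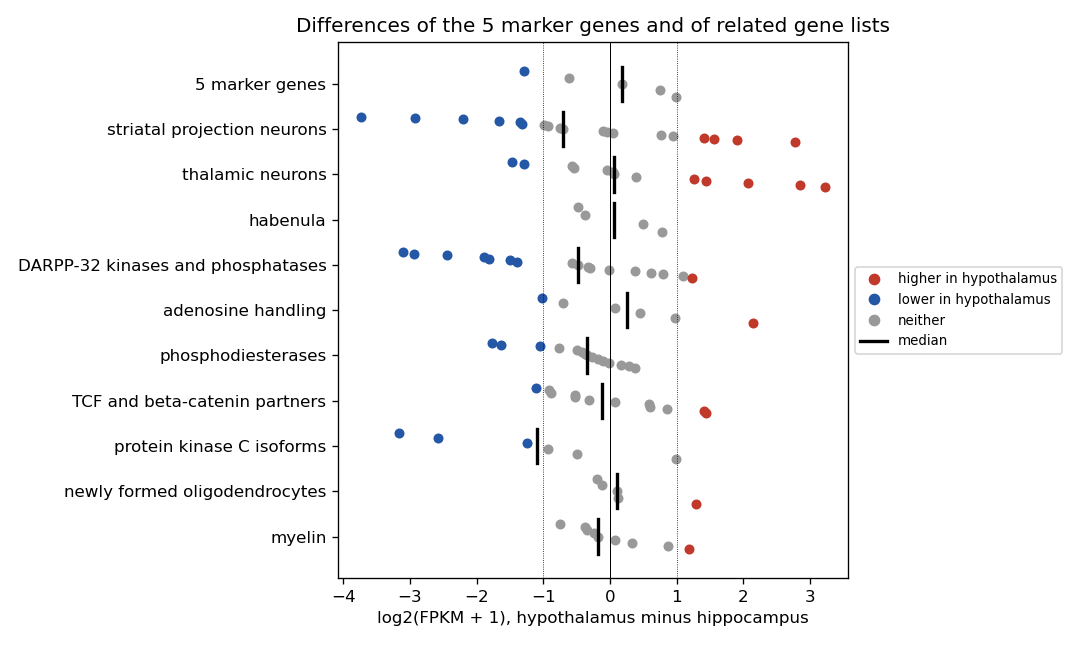
Difference in log2(FPKM + 1), hypothalamus minus hippocampus (horizontal axis), of the 5 genes and of the genes of 10 related lists (rows), red where called higher, blue where called lower and grey where neither, with a black bar at each median and dotted lines at the limit. The striatal and thalamic lists have called genes on both sides, and the 3 called protein kinase C isoforms and the 3 called phosphodiesterases are all lower.

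The partners of each gene were taken from lists made for its pathway. Of 17 kinases and phosphatases around DARPP-32, 7 were lower and 1 was higher in hypothalamus, against 13.4% and 13.3% of all genes. Their median was -0.48. The calcineurin subunits Ppp3ca and Ppp3r1, which dephosphorylate DARPP-32, were at 709.7 ± 198 and 716 ± 120 FPKM in hippocampus and at 80.5 ± 17.9 and 95.3 ± 32.9 in hypothalamus (SD, n = 4). These sums depend on the locus rule: the difference was -3.11 for Ppp3ca and -2.94 for Ppp3r1, and with the highest locus alone -2.48 and -2.07, both still called. Ppp1r1b itself had a mean 1.96 times that of hippocampus.

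Of 6 compared genes of adenosine handling, 1 was higher and 1 lower (13.3% and 13.4% of all genes), with a median of 0.26. Adora1, the A1 receptor, was at 53.9 ± 16.4 and 32.5 ± 7.85 FPKM and was not called, far above Adora2a in both tissues. Ada, adenosine deaminase, stood at 0.78 ± 0.50 and 6.85 ± 1.77 FPKM and was called higher, while Adk, adenosine kinase, was called lower at 80.5 ± 18.0 and 38.9 ± 7.98 FPKM. The difference of Adk was -1.02 and fell under the limit without hippocampus replicate 2 (-0.91) or 4 (-0.98), or hypothalamus replicate 2 (-0.94) or 3 (-0.97), and with values as deposited (-0.79).

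Of 15 phosphodiesterase genes other than Pde10a, 3 were lower in hypothalamus and none was higher (13.4% and 13.3% of all genes). The median was -0.35. Pde2a, a phosphodiesterase stimulated by cyclic GMP, was at 138 ± 17.3 and 39.4 ± 3.33 FPKM, and Pde1a, one activated by calmodulin, at 55.4 ± 19.2 and 16.7 ± 2.53 FPKM. The difference of Pde10a, -1.29, lay between those of Pde1a, -1.63, and Pde4d, -1.06, the third called gene, named after its value was seen. Pde4d was not called without hippocampus replicate 2 (-0.89) or with values as deposited (-0.84), nor was Pde1a with the highest locus alone (-0.96).

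Among 12 compared TCF and beta-catenin partners, 2 were higher and 1 was lower (13.3% and 13.4% of all genes), with a median of -0.13. The 2 higher genes were the other compared members of the TCF family. Lef1 also stands on the thalamic list. Lef1 was at 2.23 ± 0.41 and 7.89 ± 2.00 FPKM, and Tcf7l1 at 3.46 ± 0.75 and 10.8 ± 2.01 FPKM (SD, n = 4). Ctnnb1, which encodes beta-catenin, was at 159.8 ± 13.7 and 111 ± 9.84 FPKM, and Apc, of the complex that degrades it, at 40.4 ± 11.3 and 20.6 ± 2.35 FPKM. Neither Ctnnb1 nor Apc was called, but Apc was without hippocampus replicates 3 and 4 (-1.15).

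Of 6 other protein kinase C isoforms compared, 3 were lower in hypothalamus and none higher (13.4% and 13.3% of all genes). The median was -1.09. Prkcb was at 223 ± 40.5 and 23.6 ± 1.40 FPKM and Prkce at 161 ± 36.8 and 26.0 ± 5.01 FPKM (SD, n = 4). With the highest locus in place of the sum the difference went from -3.17 to -2.30 for Prkcb and from -2.58 to -3.26 for Prkce, so which of them differed more depends on that rule, while both stayed called. Prkcd was below both in each tissue as summed.

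The genes with the most similar pattern were found by the root mean square difference of centred log2(FPKM + 1) over the 8 libraries, where 0 means the same pattern. For Ppp1r1b they were Grn (0.13) and RGD1306058 (0.14), and for Adora2a Zfp513 (0.05), Metrnl (0.06) and Gorasp1 (0.08). For Pde10a they were Nfib (0.06), Camk1d (0.07) and Cdh8 (0.09). Tcf7l2 had less close neighbours, with Pqlc3 (0.18), Sumo2 (0.18) and Oasl2 (0.20), and so had Prkcd, with Mog (0.23), Stk39 (0.25) and Bbs2 (0.26). The median over all genes was 0.49 for Adora2a and 0.63 to 0.76 for the others. Mog, a myelin gene, was at 93.4, 138, 181 and 136 FPKM in hippocampus and at 76.5, 66.4, 80.1 and 94.2 in hypothalamus. Both it and Prkcd were lowest in replicate 1 and highest in replicate 3 of hippocampus.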

How the data were processed

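RNA of 4 hippocampus and 4 hypothalamus libraries was enriched for polyadenylated transcripts and sequenced, per the labels' protocols. Its levels are in FPKM, deposited by the authors as 1 table per tissue with a status beside each value. Tools named in the submitters' processing notes are Bowtie, Bowtie2, TopHat, TopHat2, Cuffdiff and Cufflinks, on build rn5. How they were set, and their versions, is not given in the sources used here. Values of the 5 genes all carried the status OK.

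Loci that share a symbol were added up in FPKM, and the sums were divided by median-of-ratios factors, over the 8 libraries for comparisons between tissues and within a table for ratios between libraries. A filter kept genes whose mean reached 1 FPKM. Differences are on log2(FPKM + 1), a scale that shrinks those of low genes. The plan had no test across the tables. limma 3.58.1 was run as an alternative with Benjamini-Hochberg adjustment, and calls were tested on simulated data.

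The 5 genes, the 16 gene lists and the rules were chosen with earlier results of these data known. Named genes were the 5 members, in each list the 2 called genes with the largest difference and the 2 with the highest level, and 3 nearest patterns per member; exceptions are stated, and 2 genes are not reported here by name, 1 of which is counted in its list. Genes of lists used only as tissue or cell markers are given as sums, apart from Mog, Bcas1, Enpp6 and Gpr17. Sums not given above were, in hippocampus and hypothalamus, 1339 to 2139 and 1334 to 1596 FPKM for astrocytes. They were 159 to 260 and 232 to 324 for microglia, and 140 to 172 and 73.2 to 104 for endothelium. Hypothalamic neuron genes summed to 3.29 to 10.3 and 5730 to 10770 FPKM. The number of reads is unknown. Among loci under 0.05 FPKM, 40.6 to 56.8% of ratios fell on 1 shared value (within 0.01 in natural log) in pairs of replicates 2, 3 and 4, and 4.17 to 6.25% in pairs with replicate 1. These steps give relative depth only, so no counting interval is given. Correlation across genes was 0.932 to 0.976 between hippocampus libraries and 0.954 to 0.990 between hypothalamus libraries. Settings tried were 2 other scalings, a pseudocount of 0.1, other filters, the highest locus of a symbol, flagged values left out, libraries left out, and limma with and without the replicate number.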

Additional observations from a re-analysis of the deposited data

Results flagged for a closer look

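In 118 groups of 4 libraries (the 5 genes, the striatal, thalamic and habenular genes and the summed levels of all lists, in each tissue), 10 had 1 library far from the other 3. Chance flags about 1 in 20 groups, and neighbouring genes of a list are not independent. Among the 5 genes this held once, for Prkcd in hypothalamus, where replicate 4 stood at 15.4 FPKM and the others at 10.5 to 10.7. In hippocampus replicate 3, Gbx2 (0.79 FPKM) and Shox2 (0.50 FPKM) stood apart, both thalamic genes and both near 0 in the other hippocampus libraries. In the hypothalamus libraries Gbx2 was at 0.86 to 1.95 FPKM and Shox2 at 0.25 to 1.11 FPKM.

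In hippocampus replicate 4, Chrnb4 and Chrna3 stood at 11.6 and 6.44 FPKM, against 0.37 to 0.74 and 0.81 to 0.83 in the other hippocampus libraries. Both are nicotinic receptor genes of the habenula list. The rest of that list was not highest there. Gng8 was at 20.7 FPKM (23.1 in replicate 3), Gpr151 at 0.15 (0.26 in replicate 2) and Lrrc55 at 3.30, its lowest hippocampus level. Drd2 was highest in hippocampus replicate 1, at 1.55 FPKM. Slc17a6 was highest in hypothalamus replicate 1, at 77.3 FPKM. Of the list sums, adenosine handling was high in hypothalamus replicate 1 (102 FPKM), protein kinase C isoforms in hippocampus replicate 2 (618 FPKM) and choroid plexus genes in hypothalamus replicate 2 (115 FPKM).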

How the results depend on the processing

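Pde10a kept its call under all settings, with differences of -1.48 to -1.12 when single libraries were left out and -1.68 without hippocampus replicates 3 and 4, a setting chosen after choroid plexus genes had been seen. Ppp1r1b was called higher with values as deposited (1.22), upper-quartile scaling (1.10), a pseudocount of 0.1 (1.01), without replicate 1 of both tissues (1.12) and without hippocampus replicates 3 and 4 (1.31), and ranged from 0.76 to 1.14 over single libraries left out. Adora2a, Tcf7l2 and Prkcd were called under no setting; over single libraries left out they ranged from 0.04 to 0.30, 0.63 to 0.99 and -0.96 to -0.41. Beyond these ranges, Adora2a was at 0.41 without replicate 1 of both tissues and 0.34 as deposited, and Prkcd at -0.18 without hippocampus replicates 3 and 4 and -0.40 as deposited. The striatal median was -0.48 with values as deposited, -0.16 with the highest locus of each symbol and -0.76 to -0.61 with a library left out. The thalamic median was 0.39 without a filter, 0.39 with a filter at 5 FPKM and 0.05 to 0.27 with a library left out; Adora2a did not pass that filter. With upper-quartile scaling Adk (-0.91) and Pde4d (-0.95) were not called. Drd1 was called lower with a pseudocount of 0.1 (-1.27). The cause was not tested. Over single libraries left out, 1361 to 1548 genes were higher and 1380 to 1502 lower; with values as deposited 65.3% of calls were higher, with upper-quartile scaling 58.4%, against 49.9%, and the median gene moved from -0.04 to 0.18 and 0.07.

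Ratios of highest to lowest hippocampus library, with 1 library left out, ranged from 1.40 to 2.17 for Ppp1r1b, 1.67 to 2.30 for Adora2a, 1.68 to 2.20 for Pde10a, 1.25 to 2.39 for Tcf7l2 and 1.48 to 3.42 for Prkcd. In hypothalamus they were 1.17 to 1.58, 1.13 to 1.64, 1.04 to 1.07, 1.33 to 1.60 and 1.04 to 1.49 in the same order.

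In limma the adjusted p was 0.00563 for Ppp1r1b, 0.447 for Adora2a, 4.12e-04 for Pde10a, 0.0216 for Tcf7l2 and 0.107 for Prkcd. These adjusted p values set the difference against the spread between libraries, taken as independent. They cannot tell tissues from tables. With the replicate number as a block the adjusted p values were 0.00893, 0.503, 0.00119, 0.0196 and 0.0727. The differences were the same (0.99 for Ppp1r1b, 0.18, -1.29, 0.75 and -0.62). With the block 5847 genes passed an adjusted p of 0.05, against 6226 without it. Deviations of same-numbered libraries correlated at -0.08, -0.06, 0.08 and 0.14, so the numbers were not taken as pairs. The number of reads is unknown, so how far depth limits the low levels of Adora2a, Gbx2 and Shox2 could not be given.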
